A study of Mus musculus with 18 samples.

Results

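The chemokine ligand genes of the mouse were followed through a study that turned mouse fibroblasts into intestinal progenitor cells. Members were all genes whose name in the array files starts with Ccl, Cxcl, Cx3cl or Xcl and a digit, which gave 36 of the 19700 named genes on the array. Each gene is represented by its brightest probe. Pf4 is among them because the files use its older name Cxcl4, and the probes that the files name Ccl21b and Ccl21c were matched to Ccl21a in RefSeq; the Ccl21 genes are near-identical copies whose signals cannot be separated.

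RNA from 6 groups of C57BL/6 origin was hybridised, 3 arrays per group. The iISC group holds budding organoids from induced intestinal stem cells, and the crypt group holds budding organoids from adult intestinal crypts. iFIPC organoids are a mix of spherical and budding organoids from induced fetal intestinal progenitor cells, and FI organoids are the same mix from native fetal intestinal progenitor cells. iHep cells are induced hepatocyte-like cells made from mouse embryonic fibroblasts (MEFs), and the titles of both fibroblast and iHep arrays mark them as re-analysed from earlier work. Whether the induced intestinal cells came from these MEFs is not given in the labels. No treatment, transgene or age is given in the labels for these groups. The codes 4α1, 4α2 and 4α3 in the iHep titles are not explained, so whether the 3 iHep arrays are repeats of 1 conversion is not known. The labels do not say that arrays of a group came from separate animals or cultures, so the p-values measure only the spread between these arrays.

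Chemokines are small secreted proteins that guide leukocytes along a concentration gradient by binding G protein-coupled receptors. CXC ligands with an ELR motif attract neutrophils through Cxcr2, interferon-induced CXC ligands attract T cells through Cxcr3, and many CC ligands attract monocytes, eosinophils or lymphocytes. In the intestine the epithelium makes a steady set of them, above all Ccl25 and Ccl28, which bring lymphocytes and plasma cells to the mucosa, and adds inflammatory ones when NF-kB signalling is switched on.

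Levels are log2 of the background-subtracted spot signal minus the 75th percentile of the same array, so 0 is the level that 75% of the probes do not exceed. A level is compared only with the same probe on another array. The 75th percentile was between 714.1 and 1484 intensity units, and 56.15% to 68.67% of the probes were well above background on an array. MEF arrays 2 and 3 differed by a spread of 0.073 log2 units, against 0.197 to 0.536 for the 17 other pairs of arrays within a group, and were counted as 1 sample, which leaves 17 samples and 2 for the MEFs. Cdh1, the epithelial cadherin, was at 4.80 to 5.41 on the organoid arrays, and Adgre1, a macrophage marker, was not well above background on any organoid or iHep array. The MEF arrays carried Adgre1 at -0.62, 0.71 and 0.59 and Ptprc, the leukocyte antigen CD45, at -3.45, -2.11 and -2.17. The MEF and iHep arrays were read with another version of the extraction software than the organoid arrays. The median of 7 spike-in controls was 0.8 log2 units higher on them, so that array set and cell type cannot be told apart in any comparison of organoids with MEFs or iHep cells.

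In iISC organoids 15 of the 36 chemokines were well above background on all 3 arrays, as were 15 in crypt organoids, 23 in iFIPC organoids, 15 in FI organoids, 20 in iHep cells and 24 in MEFs. On every array of every group, 10 were measured, namely Ccl5, Ccl6, Ccl9, Ccl17, Ccl20, Ccl25, Ccl27a, Cx3cl1, Cxcl10 and Cxcl16. Ccl24 and Ccl28 were well above background on all organoid arrays and on no MEF or iHep array. Ccl21a and Xcl1 were not well above background on any array, and Ccl1, Ccl22 and Cxcl3 never reached all 3 arrays of a group. Ccl22 shows the limit of a single array, with -1.98 on MEF array 3 and -9.06 on the otherwise near-identical MEF array 2.

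**Figure D1:**
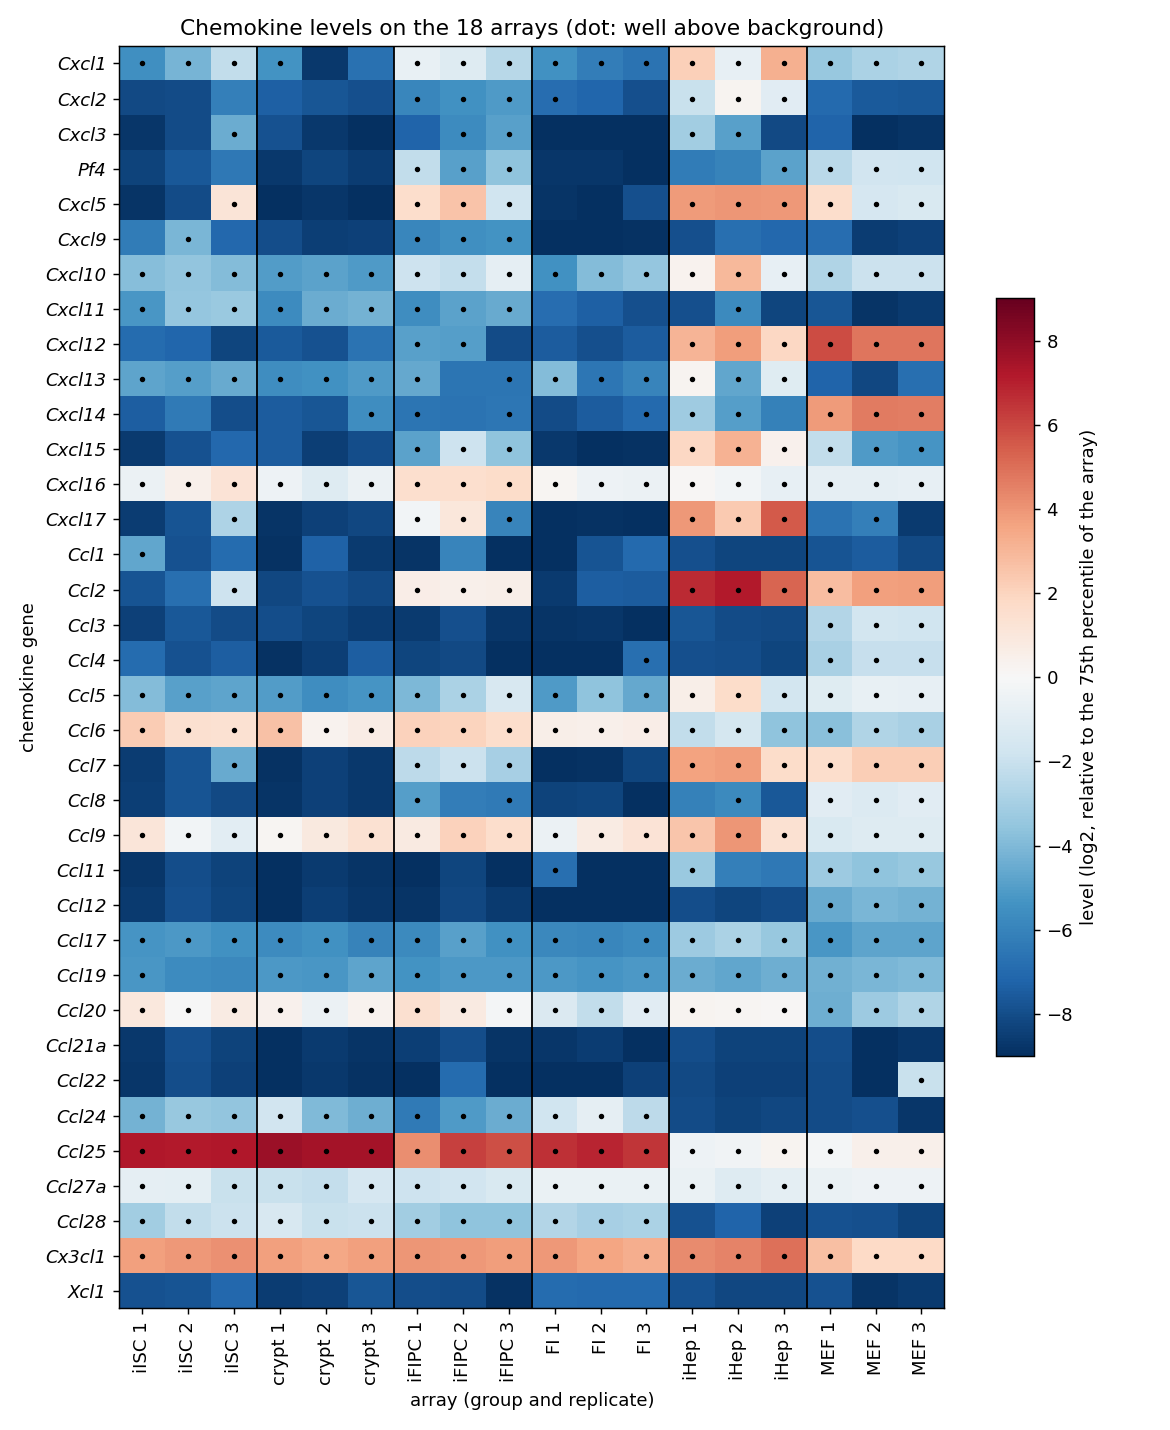
Level of each of the 36 chemokine genes (rows) on each of the 18 arrays (columns, by group and replicate), as log2 relative to the 75th percentile of the array. A dot marks a probe well above background; colours compare arrays within a row, not rows with each other. 8 chemokines have a dot in all 3 iFIPC columns and in no FI column.

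Cxcl1, Cxcl10, Cxcl16 and Ccl20 were among the chemokines higher in iFIPC than in FI organoids, the induced and the native fetal type, while Ccl24, Ccl25 and Ccl27a were lower. A gene was tested where all arrays of one or the other group were well above background, which held for 24 of the 36 chemokines. In iFIPC organoids 13 rose and 3 fell (limma, p adjusted by Benjamini-Hochberg and under 0.05, with a log2 difference of 1 or more). Over all 14373 genes tested 10.7% passed, 5.71% as higher and 5.02% as lower. The median difference of the tested chemokines was 1.83 log2 units, and that of all genes was -0.08. Members that were bright only in iFIPC organoids entered the test through that group, so the count describes these genes and is no test of the family. Ccl2, Ccl7, Cxcl5, Cxcl9, Cxcl11, Cxcl15, Cxcl17 and Pf4, 8 genes in all, were well above background on every iFIPC array and on no FI array. For those genes the fold is a lower bound, taken against the dimmest signal that counts as measured. Such bounds, here and below, hold only for the background subtraction of the main fit.

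Among the neutrophil attractants, Cxcl5 was at 1.57, 2.56 and -1.79 in iFIPC organoids and at -8.82, -9.16 and -7.88 in FI organoids. The groups do not overlap, and iFIPC array 3 is the lowest of its group. That is a level at least 212-fold higher (log2 difference 9.40 ± 2.24 SE, adjusted p = 0.0159, limma). Cxcl1, the mouse keratinocyte chemoattractant, was at -0.65, -1.15 and -2.47 in iFIPC organoids and at -5.45, -6.20 and -6.61 in FI organoids. It rose by 4.66 ± 0.96 log2 units (adjusted p = 0.00916, limma), with no overlap. Cxcl2, a close relative that acts on the same receptor, averaged -5.49 ± 0.38 in iFIPC organoids and -7.30 ± 0.54 in FI organoids (SD, n = 3 each) and rose by 1.81 (adjusted p = 0.0264, limma), a call that held in 7 of 16 other settings. Only 1 of the 3 FI arrays was above background for Cxcl2, and the difference was 0.44 (adjusted p = 0.0153, limma) with normexp correction, under the size needed for a call. Cxcl15, an ELR ligand first known from mouse lung, was at -4.83, -1.86 and -3.64 in iFIPC organoids and between -8.96 and -8.66 in FI organoids, at least 11.4-fold higher (adjusted p = 0.000999, limma). Pf4, platelet factor 4, is a neighbour of these genes on the chromosome and is not counted among the neutrophil attractants. Its level was -2.21, -4.90 and -3.65 in iFIPC organoids and between -8.93 and -8.74 in FI organoids, at least 10.3-fold higher (adjusted p = 0.000968, limma). Cxcl3, the remaining neutrophil attractant among the members, was too dim to test, with 2 of 3 iFIPC arrays and no FI array above background.

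These neighbours lie in 1 stretch of chromosome 5. On the mm9 build their probes run from base 91190205 to 91334593, 144.4 kb, in the order Cxcl5, Pf4, Cxcl3, Cxcl15, Cxcl1 and Cxcl2, and the 5 tested genes there were called higher in iFIPC organoids (5.71% of all genes tested were). A second stretch of that chromosome, 92752191 to 92790274, holds Cxcl9, Cxcl10 and Cxcl11, which were all called higher. On chromosome 11, Ccl2 and Ccl7, the 2 tested of 6 members between 81850650 and 81990395, were higher, while none of the 3 tested of 5 members between 83339296 and 83478111 (Ccl5, Ccl9 and Ccl6) passed. Among the called genes of these stretches only Cxcl1, Cxcl2 and Cxcl10 were above background on any FI array; the others were tested through iFIPC alone, which largely sets their direction, so the counts describe position and nothing more.

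Promoter sequences are shown for neighbours on chromosome 5 and for Ccl20, since these hold a common motif. RefSeq windows of GRCm38.p6, from 250 bases before to 50 bases after the gene start, were matched for 26 of the 36 genes. They were searched on both strands for GGGNNTTTCC, a kappa-B type motif bound by NF-kB, with N as any base. The motif was in 1.63% of 32851 promoters of the same length and in 5 of the 29 windows of chemokine genes, those of Cxcl1, Cxcl2, Cxcl3, Ccl20 and Ccl9. Of these, Cxcl1, Cxcl2 and Ccl20 rose in iFIPC organoids, Ccl9 did not pass and Cxcl3 was not tested. A match is a description of letters and not a binding site. The windows of the first 4 follow, 5′ to 3′ on the plus strand, with matches in capitals on either strand.
Cxcl1, chr5:90890995-90891294: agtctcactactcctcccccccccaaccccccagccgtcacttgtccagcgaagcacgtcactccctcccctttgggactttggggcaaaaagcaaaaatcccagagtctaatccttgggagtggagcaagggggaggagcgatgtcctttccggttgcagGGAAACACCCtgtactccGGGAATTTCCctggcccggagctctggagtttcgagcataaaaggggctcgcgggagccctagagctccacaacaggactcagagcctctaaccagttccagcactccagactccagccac
Cxcl2, chr5:90903649-90903948: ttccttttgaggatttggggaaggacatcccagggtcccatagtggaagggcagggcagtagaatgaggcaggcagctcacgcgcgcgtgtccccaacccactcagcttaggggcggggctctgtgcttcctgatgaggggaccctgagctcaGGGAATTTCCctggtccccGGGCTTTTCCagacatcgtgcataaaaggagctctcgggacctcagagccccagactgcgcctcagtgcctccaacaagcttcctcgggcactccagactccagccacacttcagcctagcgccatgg
Cxcl3, chr5:90785851-90786150: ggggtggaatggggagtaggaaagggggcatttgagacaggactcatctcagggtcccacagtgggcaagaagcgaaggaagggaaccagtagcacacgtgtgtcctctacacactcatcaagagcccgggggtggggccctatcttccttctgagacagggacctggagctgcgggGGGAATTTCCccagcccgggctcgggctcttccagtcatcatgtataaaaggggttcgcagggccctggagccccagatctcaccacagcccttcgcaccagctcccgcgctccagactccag
Ccl20, chr1:83116516-83116815: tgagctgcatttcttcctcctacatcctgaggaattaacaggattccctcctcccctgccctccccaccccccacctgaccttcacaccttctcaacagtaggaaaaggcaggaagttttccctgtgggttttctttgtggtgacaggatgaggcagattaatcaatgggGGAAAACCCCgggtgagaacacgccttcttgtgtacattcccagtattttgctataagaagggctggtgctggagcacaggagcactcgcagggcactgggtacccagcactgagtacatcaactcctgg
Cxcl1 and Cxcl2 hold 2 matches each, 89 and 71 bases before the gene start in Cxcl1 and 97 and 78 in Cxcl2, and the letters GGGAATTTCC occur in Cxcl1, Cxcl2 and Cxcl3.

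Ccl2 and Ccl7, monocyte attractants that act on Ccr2, also rose in iFIPC organoids. Ccl2 was at 0.57, 0.45 and 0.50 in iFIPC organoids and at -8.59, -7.43 and -7.48 in FI organoids. The iFIPC arrays lie close together, and array 2 was on another slide than arrays 1 and 3. Ccl2 was at least 176-fold higher (log2 difference 8.34 ± 1.19 SE, adjusted p = 0.00218, limma). Ccl7, its neighbour, was at -2.33, -1.93 and -3.02 in iFIPC organoids and between -8.98 and -8.24 in FI organoids, at least 23.0-fold higher (adjusted p = 0.00155, limma). Ccl8 was above background on 2 iFIPC arrays and no FI array and was not tested, and Ccl12 was at background on all of them.

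All 3 ligands of Cxcr3, which interferon induces in many cells, rose as well. Cxcl10 was at -1.85, -2.13 and -0.78 in iFIPC organoids and at -5.42, -3.92 and -3.48 in FI organoids, a rise of 2.69 ± 0.47 (adjusted p = 0.0050, limma). Cxcl9 averaged -5.60 ± 0.28 in iFIPC organoids and -8.96 ± 0.07 in FI organoids (SD, n = 3 each), at least 2.54-fold higher (adjusted p = 0.00478, limma). Cxcl11 averaged -4.99 ± 0.54 in iFIPC organoids and -7.37 ± 0.53 in FI organoids (SD, n = 3 each), at least 3.88-fold higher (adjusted p = 0.0159, limma).

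Cxcl17, Ccl20 and Cxcl16, which epithelia make, also rose. Cxcl17, a mucosal chemokine, was at -0.23, 1.01 and -5.94 in iFIPC organoids and between -9.10 and -8.89 in FI organoids, at least 37.5-fold higher (adjusted p = 0.0185, limma). Its iFIPC arrays are spread widely, with array 3 far below the others. Ccl20, which draws Ccr6-bearing cells to the epithelium over lymphoid follicles, averaged 0.68 ± 0.84 in iFIPC organoids and -1.53 ± 0.63 in FI organoids (SD, n = 3 each), a rise of 2.21 (adjusted p = 0.0109, limma). Cxcl16, a membrane-bound ligand of Cxcr6, was at 1.52, 1.53 and 1.63 in iFIPC organoids and at 0.19, -0.48 and -0.53 in FI organoids, a rise of 1.84 ± 0.38 (adjusted p = 0.00975, limma).

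The members that fell in iFIPC organoids were Ccl24, Ccl25 and Ccl27a. Ccl24, an eotaxin that recruits eosinophils through Ccr3, was at -6.38, -5.13 and -4.49 in iFIPC organoids and at -1.77, -0.82 and -2.37 in FI organoids, a difference of -3.68 ± 0.73 (adjusted p = 0.00807, limma). Ccl25, the small-intestinal ligand of Ccr9, was at 4.17, 6.18 and 5.78 in iFIPC organoids and at 6.59, 6.89 and 6.46 in FI organoids, a difference of -1.27 ± 0.41 (adjusted p = 0.0478, limma). Without iFIPC array 1 the difference was -0.66 (adjusted p = 0.0285, limma), below the size needed for a call, and the Ccl25 call held in 3 of 16 other settings. Ccl27a, a ligand of Ccr10 best known from skin, averaged -1.65 ± 0.25 in iFIPC organoids and -0.59 ± 0.03 in FI organoids (SD, n = 3 each), a difference of -1.06 (adjusted p = 0.0300, limma), which held in 8 of 16 other settings. The tested members that did not pass were Ccl5, Ccl6, Ccl9, Ccl17, Ccl19, Ccl28, Cx3cl1 and Cxcl13, with differences between -0.60 and 1.65.

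**Figure D2:**
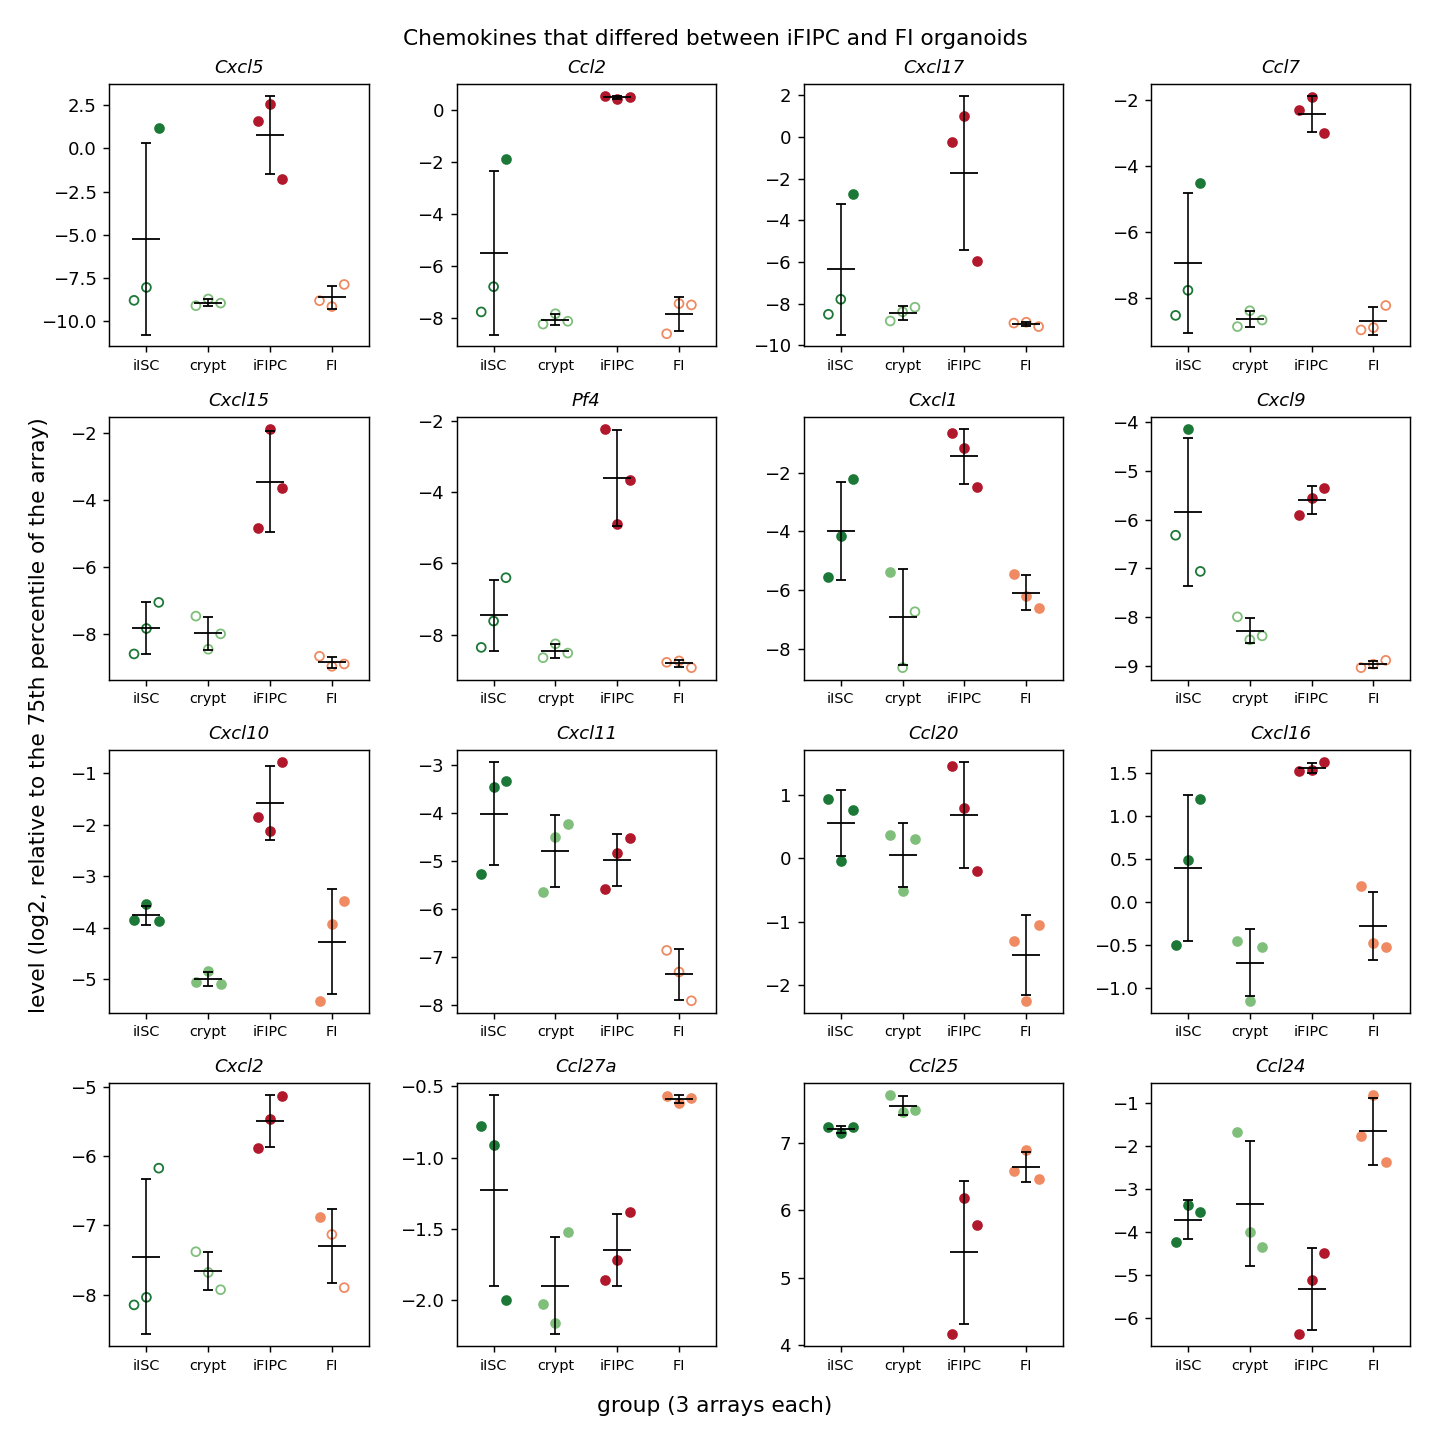
The 16 chemokines called different between iFIPC and FI organoids, with 1 panel per gene and the 4 organoid groups on the x axis; the y axis is the log2 level relative to the 75th percentile of the array. Filled points are arrays well above background, open points are not, and bars are mean ± SD over 3 arrays. iISC array 3 stands above the other iISC arrays for Ccl2, Ccl7, Cxcl5 and Cxcl17.

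iFIPC and FI organoids were on no common slide. With slide as a fixed term these groups are linked only through crypt arrays. Crypt array 1 is on the slide of the FI arrays, and crypt arrays 2 and 3 are with iFIPC arrays 1 and 3. iFIPC array 2 does not enter that difference. In that fit 2 chemokines passed, Cxcl15 (5.36, adjusted p = 0.0316, limma) and Ccl6 (3.44, adjusted p = 0.0273, limma), and 0.863% of all genes. The Ccl6 value depends on crypt array 1, at 2.63, while crypt arrays 2 and 3 were at 0.35 and 0.69. Ccl2, at 8.12 (adjusted p = 0.178, limma), and Cxcl1, at 6.83 (adjusted p = 0.12, limma), were not called, and the values of Ccl24 (-1.29, adjusted p = 0.572, limma) and Cxcl11 (1.03, adjusted p = 0.653, limma) shrank. On the slide that carried iFIPC arrays 1 and 3 together with crypt arrays 2 and 3, Ccl2 was at 0.57 and 0.50 in iFIPC organoids and at -7.82 and -8.11 in crypt organoids. Normexp background correction was run with an offset of 50, which by itself shrinks the differences of dim genes. They were then 4.66 for Ccl2, 5.15 for Cxcl5, 2.06 for Ccl7, 1.41 for Cxcl15, 1.40 for Pf4 and 3.17 for Cxcl17. For Cxcl1 the value was 2.73, for Cxcl10 1.76 and for Ccl24 -2.26. All of these were still called, while Cxcl2, Cxcl9, Cxcl11 and Ccl27a were not. For Ccl2, Cxcl5, Ccl7, Cxcl15, Pf4 and Cxcl17 these sizes lie under the lower bounds given above. Leaving out 1 array gave 10 to 14 called chemokines, the fewest without FI array 2, where Cxcl5 (adjusted p = 0.0564, limma) and Cxcl17 (adjusted p = 0.0582, limma) missed the threshold.

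Some markers of other cells moved with this comparison. Those of smooth muscle did not: of 7 on the array 5 were tested, and 0 rose and 0 fell, with a median of 0.21. Of 18 fibroblast markers 10 were tested, and 5 rose in iFIPC organoids, led by Twist1, Dcn, Fn1 and Col5a1, and 0 fell (5.71% and 5.02% of all genes). Their summed linear level was 3.08 to 12.8 times the 75th percentile in iFIPC organoids, 0.829 to 1.85 in FI organoids and 1320 to 1340 in MEFs. Dcn, decorin, was at -2.23, -1.15 and -3.65 in iFIPC organoids and not above background in FI organoids. It was tested through iFIPC alone, which largely sets its direction, so the count of fibroblast markers is a description. Col1a1, a collagen of fibroblasts, was above background on all iFIPC arrays, at -1.16, 0.50 and -3.04, and on FI arrays 1 and 3, at -1.1 and -5.91, so that the groups overlap. Of 17 immune and blood markers, 16 on the array and 10 tested, Cd14 and Cd68 rose and 0 fell, and their summed level was 134 to 153 in iFIPC organoids and 54.0 to 138 in FI organoids. Most of that sum was Lyz2, a lysozyme gene, at 6.98 to 7.22 in iFIPC organoids and 5.73 to 7.10 in FI organoids. Adgre1 was not above background in either group; Ptprc was so on iFIPC arrays 1 and 3 only. Of 9 endothelium markers 3 were tested, and 0 rose and 1, Egfl7, fell in iFIPC organoids (5.71% and 5.02% of all genes). Pecam1 and Cdh5, which are on that list, were at background in all of them, while 3 or 4 of the 9 were above background on each array. The part of these cells in the chemokine differences was not tested, and in bulk RNA fewer cells of a type cannot be told apart from less RNA per cell.

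The genes around the ligands were read from lists chosen with earlier results of these data known. Of 28 genes of the NF-kB pathway and its targets, 21 were tested between iFIPC and FI organoids, and 9 rose and 0 fell, where 5.71% of all genes were called higher and 5.02% lower; their median was 0.69 and that of all genes -0.08. Il1a, Lcn2, Ptgs2 and Vcam1, 4 of the 9, were at background on all FI arrays and were tested through iFIPC alone, so the count is a description. Among them Il1a, the cytokine interleukin 1 alpha, was at least 10.8-fold higher (adjusted p = 0.00292, limma), and Lcn2, lipocalin 2, at least 7.71-fold higher (adjusted p = 0.00652, limma). Vcam1, an adhesion molecule for leukocytes, was at least 11.6-fold higher (adjusted p = 0.00374, limma). Of 18 chemokine receptors only 2 were bright enough to test, and neither passed. Of 5 atypical receptors, which take up chemokines without the usual signalling, 4 were tested. Ackr3 (4.87, adjusted p = 0.0305, limma) and Ackr1 (2.27, adjusted p = 0.0144, limma) rose, and Ccrl2 fell by 1.84 (adjusted p = 0.0426, limma). Ackr3 was at -1.31, -1.18 and -2.88 in iFIPC organoids and at -3.16, -8.91 and -7.92 in FI organoids. Only FI array 1 was above background for it, so the size of its rise depends on background values. Dpp4, the peptidase that trims the ends of several chemokines, fell by 5.14 (adjusted p = 0.00169, limma).

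Between iISC and crypt organoids, the induced and native adult type, 0 of 16 tested chemokines passed, against 3.26% of all genes, 2.01% higher and 1.25% lower (limma). Cxcl1, Cxcl10, Cxcl16 and Ccl19, 4 genes, had an unadjusted p under 0.05. Cxcl1 was at -5.54, -4.17 and -2.21 in iISC organoids and at -5.40, -8.65 and -6.74 in crypt organoids, and the groups overlap (difference 2.96 ± 0.96, adjusted p = 0.115, limma). Cxcl10 was at -3.86, -3.55 and -3.88 in iISC organoids and at -5.06, -4.84 and -5.10 in crypt organoids, without overlap (difference 1.23 ± 0.47, adjusted p = 0.172, limma). In a fit of these 2 groups alone Cxcl10 passed (adjusted p = 0.0161, limma). Leaving out 1 array gave 0 or 1 called gene: Cxcl16 (1.55) without iISC array 1, Ccl27a (1.05) without iISC array 3 and Ccl6 (1.19) without crypt array 1. Ccl25 averaged 7.20 ± 0.05 in iISC organoids and 7.55 ± 0.14 in crypt organoids (SD, n = 3 each), a difference of -0.35 ± 0.41 (adjusted p = 0.67, limma).

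iISC array 3 stood apart in 5 chemokines, Ccl2, Ccl7, Cxcl17, Cxcl3 and Cxcl5, which were well above background there and on no other iISC or crypt array. Cxcl5 was at -8.80, -8.05 and 1.18 in iISC organoids and between -9.11 and -8.72 in crypt organoids. Ccl2 was at -7.75, -6.78 and -1.88 in iISC organoids and between -8.22 and -7.82 in crypt organoids. None of the 5 could be tested between these groups. Lcn2 was at -3.60 on the same array and at background on the other iISC and crypt arrays. The summed fibroblast level was 1.28, 1.35 and 1.21 in iISC organoids and between 1.29 and 1.56 in crypt organoids. Of the 18 fibroblast markers 6, 5 and 7 were above background on iISC arrays 1, 2 and 3, and 6 on each crypt array. Their median level was -8.00, -7.58 and -6.87 on the iISC arrays and -8.55 to -8.25 on the crypt arrays. Col3a1 was above background on iISC array 3 (-4.14) and on no other iISC or crypt array. Their part in the levels of iISC array 3 was not tested.

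**Figure D3:**
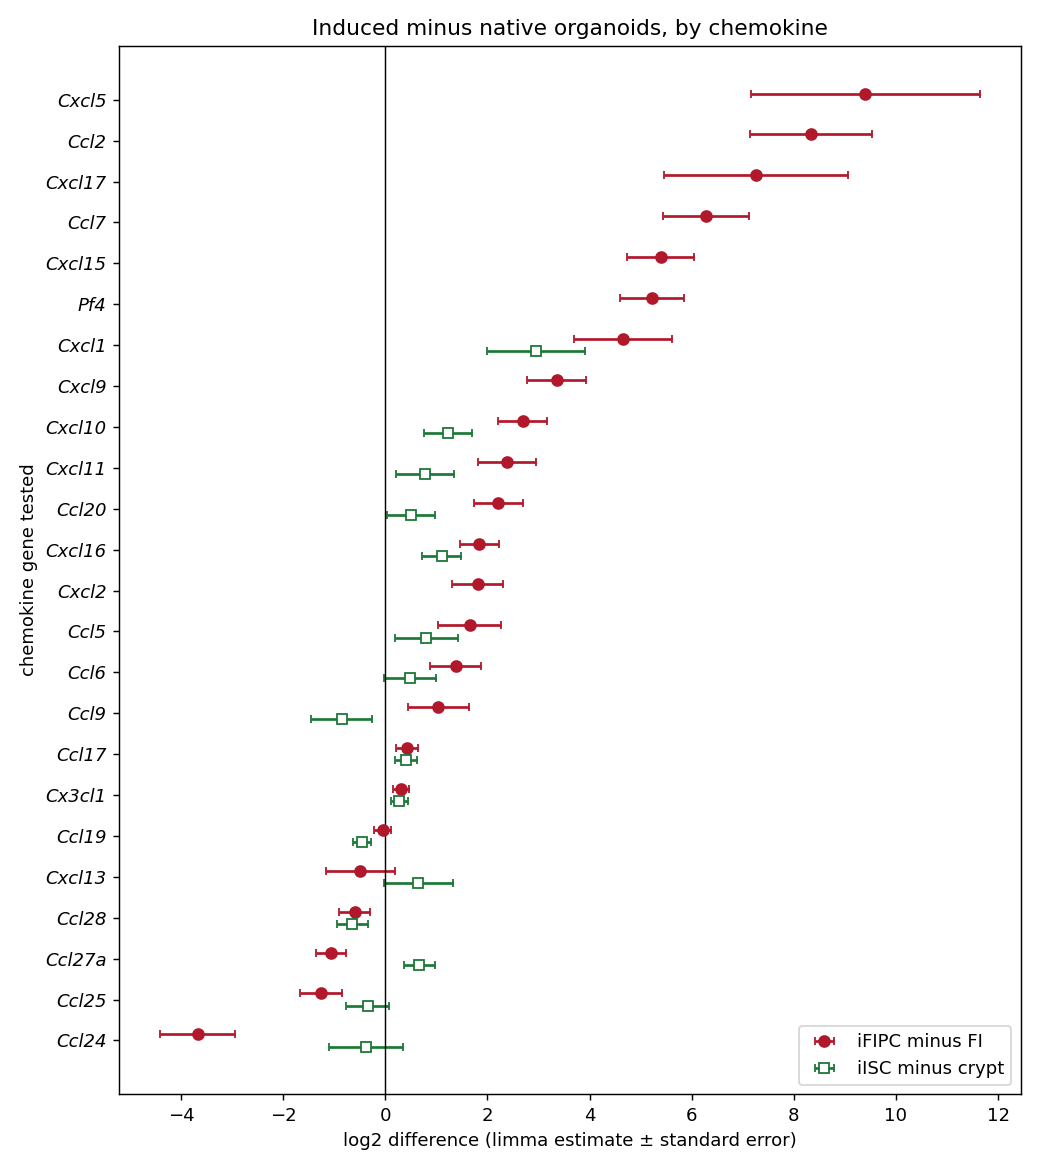
Log2 difference (x axis, limma estimate ± SE) of each chemokine tested between iFIPC and FI organoids (filled circles) and, where tested, between iISC and crypt organoids (open squares), with genes on the y axis. Cxcl5 lies at 9.40 and Ccl24 at -3.68 for iFIPC minus FI, while no square passes the test.

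The difference between these differences was tested directly, as iISC minus crypt against iFIPC minus FI. Of 24 chemokines tested 1 was higher and 3 were lower, against 5.30% of all genes, 3.29% higher and 2.01% lower. Cxcl15 (-5.25 ± 0.93, adjusted p = 0.0145, limma), Pf4 (-4.21 ± 0.89, adjusted p = 0.0251, limma) and Ccl7 (-4.58 ± 1.18, adjusted p = 0.0465, limma) had a smaller difference in the adult type, where their levels were at background on all iISC and crypt arrays for Cxcl15 and Pf4 and on all but iISC array 3 for Ccl7. All FI arrays were at background as well, so the sizes depend on background values. With normexp correction the values of Cxcl15 (-1.34, adjusted p = 0.119, limma) and Pf4 (-1.22, adjusted p = 0.0772, limma) did not pass. Ccl27a went the other way (1.73 ± 0.43, adjusted p = 0.0402, limma). The call held in 20 of 21 other settings for Cxcl15, in 13 for Pf4, in 7 for Ccl27a and in 5 for Ccl7, and those of Ccl27a and Ccl7 were each lost without any 1 of 10 arrays, all but iISC array 3 and crypt array 1. Ccl2 had a value of -5.76 (adjusted p = 0.0638, limma). Without iISC array 3, 7 genes passed, among them Ccl2 (-7.56, adjusted p = 0.000758, limma) and Cxcl5 (-8.90, adjusted p = 0.015, limma); leaving out 1 other array gave 1 to 5.

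Set directly against iFIPC organoids, iISC organoids had 1 chemokine higher and 6 lower of 24 tested, while 7.90% of all genes passed, 3.19% as higher and 4.71% as lower. This comparison shares the iFIPC arrays with that against FI organoids. Ccl25 was higher by 1.83 ± 0.41 (adjusted p = 0.0197, limma), at 7.23, 7.14 and 7.23 in iISC organoids and 4.17, 6.18 and 5.78 in iFIPC organoids. Ccl2 (-5.98, adjusted p = 0.0121, limma), Ccl7 (-4.53, adjusted p = 0.00859, limma) and Cxcl10 (-2.18, adjusted p = 0.0168, limma) were lower. Cxcl15 was at least 6.37-fold lower (adjusted p = 0.0035, limma), Pf4 at least 5.77-fold lower (adjusted p = 0.00485, limma) and Cxcl2 at least 1.54-fold lower (adjusted p = 0.0300, limma). Cxcl5 did not pass (-6.00 ± 2.24, adjusted p = 0.104, limma), and without iISC array 3 it did (-9.21, adjusted p = 0.00198, limma). iFIPC array 2 is the only iFIPC array on the slide of the iISC arrays. With slide as a fixed term, and within that slide, the difference is therefore taken against this 1 array. With the fixed term the value of Cxcl15 was -5.96, and the other genes called above were not called. For Cxcl15 iFIPC array 2 was the highest of its group, at -1.86, with -4.83 and -3.64 on iFIPC arrays 1 and 3. Normexp correction left Ccl2, Ccl7, Cxcl10 and Ccl25 called and added Cxcl1, but not Cxcl15, Pf4 and Cxcl2.

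Between the native types, crypt organoids had 3 chemokines higher and 1 lower of 16 tested against FI organoids, while 9.03% of all genes passed, 3.11% as higher and 5.92% as lower. Cxcl11 was at -5.65, -4.50 and -4.24 in crypt organoids and at -6.87, -7.32 and -7.92 in FI organoids, at least 4.43-fold higher (adjusted p = 0.0153, limma). Ccl20 was higher by 1.58 ± 0.48 (adjusted p = 0.0499, limma), with 0.37, -0.52 and 0.31 in crypt organoids and -1.30, -2.25 and -1.05 in FI organoids. Ccl28, which recruits IgA plasma cells through Ccr10, was higher by 1.05 ± 0.30 (adjusted p = 0.0413, limma), and Ccl27a was lower (-1.31 ± 0.30, adjusted p = 0.0181, limma). Without crypt array 2 or without FI array 2, 0 passed. With slide as a fixed term the difference is set by crypt array 1 alone, the only crypt array on the slide of the FI arrays. There the genes called above were not called, and the value of Ccl6, not called without the term, was 2.11. Ccl6 was at 2.63 on crypt array 1, at 0.35 and 0.69 on crypt arrays 2 and 3, and at 0.44 to 0.61 in FI organoids. Normexp correction left Ccl27a, with 0 higher and 1 lower.

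In iHep cells Cxcl1, Cxcl2, Cxcl17 and Ccl20 were among the chemokines higher than in MEFs, and Cxcl12, Cxcl14, Ccl3 and Ccl4 among the lower ones. Of 27 chemokines tested against MEFs 10 rose and 7 fell, while 27.7% of all genes passed, 11.8% as higher and 15.8% as lower; the median was 1.07 for the tested chemokines and -0.11 for all genes. Cxcl17 was at 3.93, 2.33 and 5.52 in iHep cells and at -6.61, -6.17 and -8.62 in MEFs, a fitted difference of 10.93 ± 1.85 (adjusted p = 0.000415, limma). Only 1 of the 3 MEF arrays was above background, so the size of that difference depends on background values. Cxcl2 averaged -0.92 ± 1.11 in iHep cells (SD, n = 3) and was at background in MEFs, at least 39.4-fold higher (adjusted p = 4.99e-06, limma). Cxcl1 was at 2.15, -0.71 and 3.23 in iHep cells and at -3.44, -2.84 and -2.74 in MEFs, a rise of 4.67 ± 1.20 (adjusted p = 0.00668, limma). Cxcl13, the B cell attractant, rose at least 20.7-fold (adjusted p = 0.00165, limma). Cxcl15 (5.49), Ccl9 (3.90), Ccl20 (3.88), Cxcl10 (3.18), Cx3cl1 (2.29) and Ccl17 (1.84) rose as well, with adjusted p between 1.77e-05 and 0.00769 (limma).

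Ccl2 was high in both, at 6.68, 7.14 and 5.25 in iHep cells and at 2.76, 3.68 and 3.75 in MEFs, and missed the threshold (3.12 ± 1.23, adjusted p = 0.0551, limma). It passed with quantile normalization (adjusted p = 0.0401, limma) and with normexp correction (adjusted p = 0.00081, limma). Of the 28 NF-kB genes 21 were tested, and 10 rose and 1 fell in iHep cells, where 11.8% of all genes were called higher and 15.8% lower. Lcn2 was at least 979-fold higher. It was at background on all MEF arrays and was tested through iHep alone, so the count is a description.

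The members that fell in iHep cells were Cxcl12, Cxcl14, Ccl3, Ccl4, Ccl8, Ccl12 and Pf4. Cxcl14 was at -3.20, -4.98 and -6.09 in iHep cells and at 3.82, 4.66 and 4.59 in MEFs (-8.98 ± 0.78, adjusted p = 1.42e-06, limma). Cxcl12, the stromal ligand of Cxcr4, was at 3.07, 3.79 and 1.89 in iHep cells and at 5.90, 4.84 and 4.83 in MEFs (-2.45 ± 0.84, adjusted p = 0.0303, limma). The Cxcl12 call held in 10 of 16 other settings. It was lost without iHep array 1 (-2.53, adjusted p = 0.0518, limma) and without iHep array 3 (-1.94, adjusted p = 0.0953, limma). It was also lost without MEF array 1 (-1.92), without MEF arrays 2 and 3 (-2.99), and with slide as a fixed term or within the shared slide (-2.99 in both). Only MEF array 1 shares a slide with iHep arrays, so the values of -2.99 are the same comparison, iHep cells against that array. Of 18 fibroblast markers 12 fell and 0 rose, with a median of -3.14, and all 7 smooth muscle markers on the array fell, where 15.8% of all genes were called lower; their part in the fall of Cxcl12 and Cxcl14 was not tested. Ccl3 and Ccl4, which macrophages make, were at background in iHep cells and between -2.95 and -1.62 in MEFs. They were at least 14.7-fold lower (Ccl3, adjusted p = 1.38e-08, limma) and at least 11.6-fold lower (Ccl4, adjusted p = 1.33e-05, limma). Of 12 tested immune and blood markers 9 fell and 1 rose in the same comparison (15.8% and 11.8% of all genes), with a summed level of 7.13 to 16.9 in iHep cells and 70.3 to 110 in MEFs; Adgre1 and Ptprc were at background in iHep cells. Their part in the fall of these chemokines was not tested. On the slide that iHep arrays share with MEF array 1, 10 chemokines passed, 5 of them higher, and 11.4% of all genes passed there.

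Set against MEFs, the organoids had their own set. In iFIPC organoids 12 of 30 tested chemokines were higher and 10 lower (43.5% of all genes passed, 20.2% higher and 23.3% lower), and in iISC organoids 8 of 28 were higher and 13 lower (48.5% of all genes passed, 23.1% higher and 25.4% lower). These comparisons share the MEF samples, and the array set goes with the cell type. Ccl25 was higher by 5.22 ± 0.44 in iFIPC organoids and by 7.05 ± 0.44 in iISC organoids, with -0.17, 0.49 and 0.47 in MEFs. For Ccl28 the lower bounds were 6.85-fold higher (iFIPC) and 13.8-fold higher (iISC). Ccl6, a mouse CC chemokine, averaged 1.90 ± 0.25 in iFIPC organoids, 1.70 ± 0.51 in iISC organoids (SD, n = 3 each) and -3.28 ± 0.69 in MEFs (SD, n = 2). Ccl20 was higher by 4.39 in iFIPC organoids and by 4.26 in iISC organoids. Cxcl12 fell by 11.34 in iFIPC organoids and was at least 2862-fold lower in iISC organoids. Cxcl14 fell by 10.78 in iFIPC organoids and was at least 1296-fold lower in iISC organoids. Both Cxcl12 and Cxcl14 were above background on only 2 of the 3 iFIPC arrays, so the sizes of their falls there depend on background values. With normexp correction 6 were higher and 10 lower in iFIPC organoids.

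**Figure D4:**
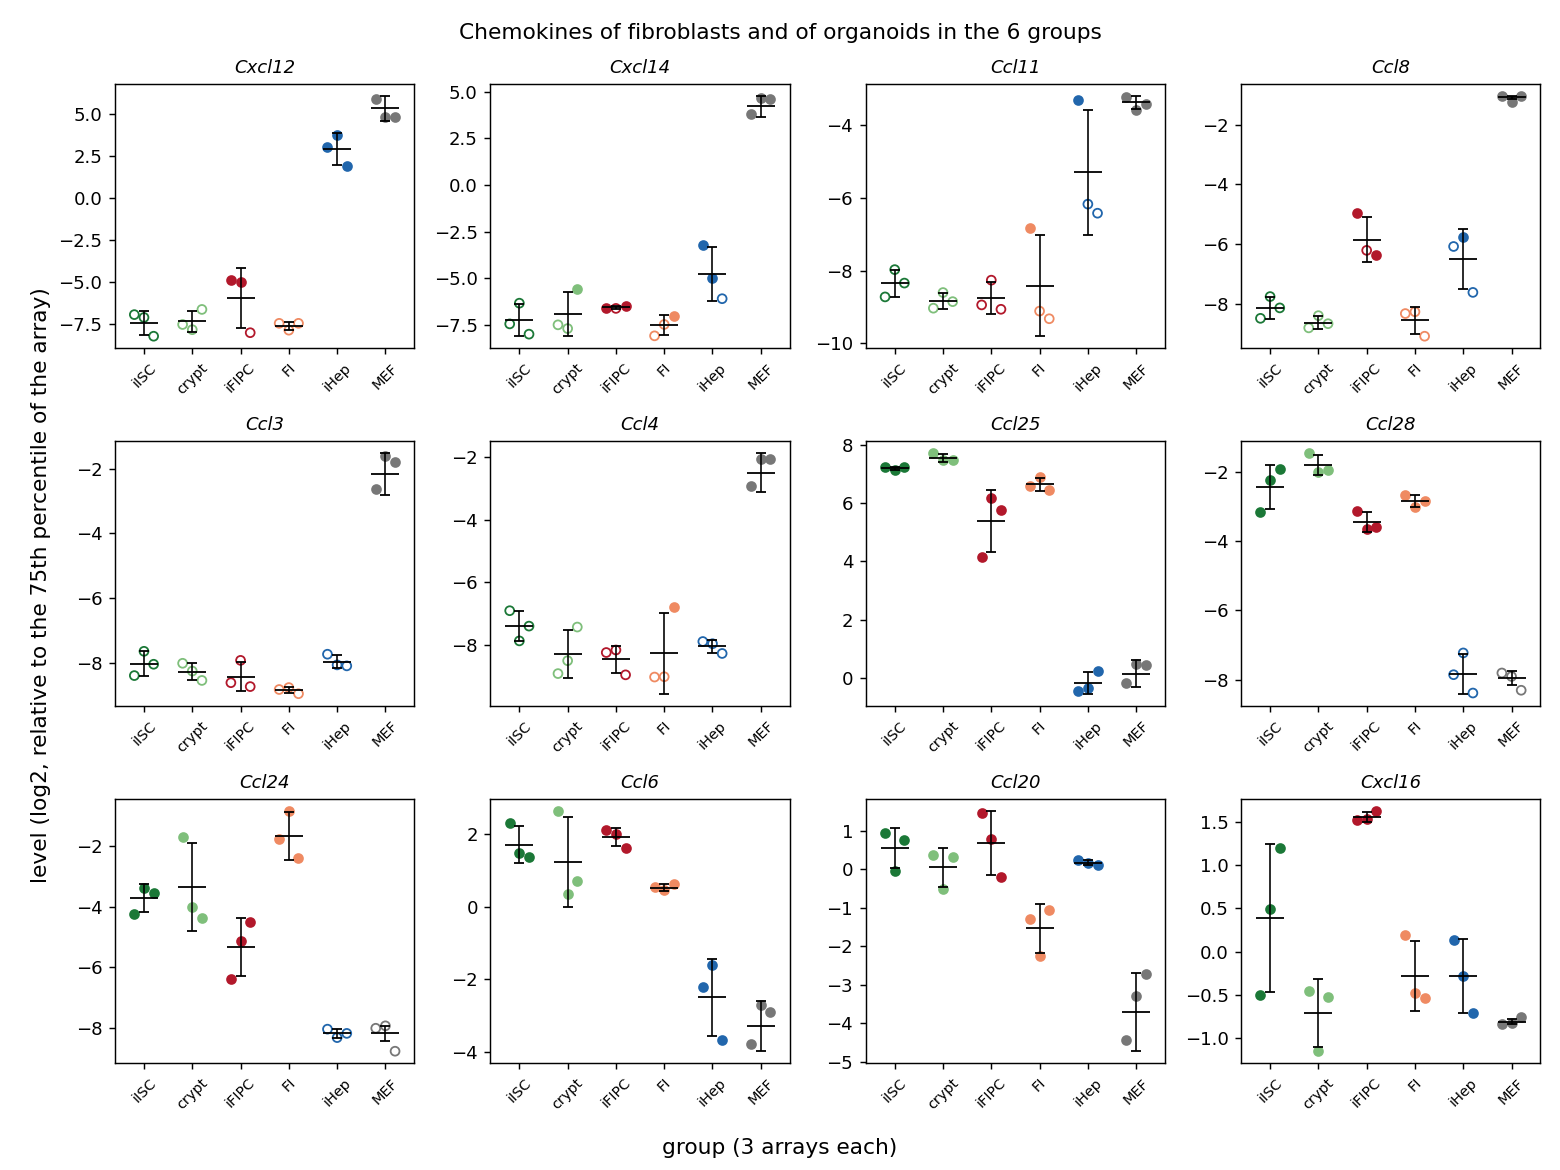
Levels of 12 chemokines in the 6 groups (x axis), as log2 relative to the 75th percentile of the array (y axis). Filled points are arrays well above background, open points are not, and bars are mean ± SD over 3 arrays, or 2 samples for MEFs, where arrays 2 and 3 count as 1. Ccl25 lies above 4 on all organoid arrays and below 1 on iHep and MEF arrays.

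Against iHep cells iFIPC organoids had 8 chemokines higher and 11 lower of 25 tested (34% of all genes passed, 17.5% higher and 16.6% lower). Ccl25 (5.54), Ccl6 (4.39) and Ccl28 (at least 6.08-fold) were among the higher ones. Ccl2 was lower (log2 difference -5.85, adjusted p = 0.00059, limma), with 0.57, 0.45 and 0.50 in iFIPC organoids and 6.68, 7.14 and 5.25 in iHep cells. Cxcl12 (-8.89), Ccl7 (-5.43), Cxcl15 (-5.23) and Cxcl2 (-4.57) were lower too. For Cxcl12 only 2 of the 3 iFIPC arrays were above background, so its size depends on background values. With normexp correction 3 were higher and 11 lower.

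Cx3cl1, the membrane-bound ligand fractalkine, was measured on all arrays and varied little among organoids, with group means of 3.90 in iISC, 3.62 in crypt, 3.87 in iFIPC and 3.57 in FI organoids. It was 4.53 ± 0.36 in iHep cells (SD, n = 3) and 2.24 ± 0.63 in MEFs (SD, n = 2). Its second probe, which is dimmer, gave 1.95 in place of 2.29 for the difference of iHep cells from MEFs. Of the 9 genes with a second probe, all gave the same sign as the first between iFIPC and FI organoids except Ccl19, at 0.11 against -0.05.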

How the data were processed

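Cy3-labelled RNA of 18 samples was measured on 1-colour Agilent arrays. Per the file headers, the authors' Feature Extraction files give the processed spot signal as an intensity on a linear scale, background-subtracted and not scaled between arrays; version 9.5.1.1, which the submitters' processing notes name, was used for MEF and iHep arrays and 10.7.1.1 for organoids. The authors' deposited series matrix, with a median intensity of 59.32 in each column, correlated at 1 with a quantile normalization of the same signals computed here and served as an alternative. The deposited quality flags (well above background, saturated, outlier) were used as the authors gave them.

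Spots with outlier flags were left out, spots of a probe were averaged, and log2 signal minus the 75th percentile of the array was tested with limma 3.58.1 (R 4.3.3) as two-sided moderated tests with Benjamini-Hochberg adjustment over all genes tested. A gene was tested where one of the groups compared had all its arrays well above background. Comparisons among organoids came from a fit of their 12 arrays, others from all 17 samples. The fit was tested on simulated data. The members and lists were chosen with earlier results of these data known. Every called member could be named, with other members where they share a receptor with one. Promoters were matched by symbol to RefSeq. Of 41109 probes, 24798 were named through the accession in the files, 6041 by symbol and 1805 by an older symbol, and 8465 stayed unnamed. Probe positions are on mm9. Alternatives were quantile normalization, normexp background correction, no filter on dim probes, the mean over probes, slide terms, the replicate block, a fit of the groups compared alone, 18 separate arrays and leaving out each array. The normexp correction used an offset of 50. The adjusted p alone, without the size cut, was counted as a setting too. The number of arrays limits the precision.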

Additional observations from a re-analysis of the deposited data

Results flagged for a closer look

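For 4 chemokines the difference between induced and native organoids differed between the adult and the fetal type by a direct test (limma). The value for Cxcl15 was -5.25, for Ccl7 -4.58, for Pf4 -4.21 and for Ccl27a 1.73 log2 units, each as iISC minus crypt against iFIPC minus FI. For Cxcl15, Pf4 and Ccl7 the FI and crypt arrays and most iISC arrays were at background, so these sizes depend on background values; with normexp correction Cxcl15 (-1.34) and Pf4 (-1.22) did not pass. The call held in 20 of 21 other settings for Cxcl15, 13 for Pf4, 7 for Ccl27a and 5 for Ccl7. Groups of 3 arrays are too small for a check of single outlying arrays.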

How the results depend on the processing

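Over 29 settings, named members kept direction and call in 1465 recalculations, kept direction but lost the call in 218 and changed sign in 3. Of the 1465, 110 came from the adjusted p alone, without the size cut, where a call could not be lost. That setting is also among those counted where a single call held. Quantile normalization and the authors' matrix are near-repeats of each other and were counted separately. The sign changes came with normexp correction: Cxcl2 (-0.037) and Cxcl9 (-0.15) in iFIPC organoids against MEFs and Cxcl9 (-0.21) against iHep cells, all dim. The number of chemokines called also moved by over 1.5 times as follows. Slide as a fixed term gave 2 for iFIPC against FI (124 in place of 1542 of all genes), 1 for crypt against FI, 1 for iISC against iFIPC and 1 for the difference of differences; Ccl6, the one for crypt and 1 of the 2 for iFIPC, was not called in the fit of all groups without that term. Within the shared slide 10 passed for iHep against MEF, 1 for crypt against FI and 0 for iISC against iFIPC. Normexp gave 1 for crypt against FI. A fit of the groups compared alone gave 1 for iISC against crypt and 2 for iISC against iFIPC. Slide as a random block gave 2 for the difference of differences and the replicate block 1. No slide holds both iFIPC and FI or both iISC and crypt arrays, and no fixed slide term could be fitted between organoids and MEFs or iHep cells. Crypt array 1 alone shares a slide with FI arrays, iFIPC array 2 alone with iISC arrays and MEF array 1 alone with iHep arrays. For these comparisons the differences with the fixed term and within the slide rest on that single array. They are the same values and were counted separately.

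Leaving out 1 array gave 14 to 18 for iHep against MEF, 18 to 22 for iFIPC against MEF, 20 to 21 for iISC against MEF, 17 to 19 for iFIPC against iHep, 0 to 1 for iISC against crypt, 10 to 14 for iFIPC against FI, 0 to 3 for crypt against FI, 6 to 8 for iISC against iFIPC and 1 to 7 for the difference of differences. Deviations of same-numbered samples from their group means correlated at -0.312 to 0.306. With 3 arrays per group these values cannot decide whether the numbers pair the samples. With the replicate block Cxcl2, Ccl25 and Ccl27a lost their call between iFIPC and FI. Levels of probes near background depend on the background correction.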
